A study of Mus musculus with 9 samples.

Results

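The data described here come from an interval of 160 kb on mouse chromosome 11 (build mm9, chr11:68790000-68950000), which was given as the locus of the genes Aurkb, Tmem107, Vamp2, Per1 and Hes7 and a cluster of tRNA genes. Its members are the fragments left by the restriction enzyme StyI whose midpoint lies in the interval, 227 of the 3053721 fragments counted over the genome. The interval was chosen with its HRS, Loop and input values in these libraries in view, so the comparisons below describe that choice and no test of them is read as support. The series mapped high-salt recovered sequences (HRS) in E14Tg2a cells, a line of mouse embryonic stem cells of 129P2 background kept on gelatin with LIF. Nuclei are extracted with salt and their DNA is cut, which gives an insoluble fraction (HRS) and a released fraction (Loop), and unfractionated genomic DNA (input) serves as the control. All 9 libraries, 3 HRS, 3 Loop and 3 input, come from this line, and the labels name no treatment or genetic change in any group. The input titles D0, D12 and D21 are not explained in the labels, and these libraries are called input 1, 2 and 3. Each library is a count of short tags from fragment ends, given below as CPM (counts scaled to 1e+06 for the whole library). No label says that replicates came from separate cultures, so the p-values behind the calls below measure only the spread between these libraries.

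As background, high-salt extraction strips histones and most soluble proteins from nuclei, and part of the DNA stays behind with the insoluble protein and RNA material. The interval is gene-dense. Aurkb encodes Aurora kinase B, the catalytic subunit of the chromosomal passenger complex in mitosis, and Tmem107 encodes a protein of the ciliary transition zone. Vamp2 encodes synaptobrevin 2, a vesicle SNARE protein. Per1 encodes a repressor of the circadian clock, and Hes7 a transcriptional repressor that oscillates in the segmentation clock of the embryo. Transfer RNA genes are short genes transcribed by RNA polymerase III, and clusters of them tend to lie in open, active chromatin.

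In the RefSeq gene order (GRCm38.p6, used here only for names and order) the genes run Ctc1, Aurkb, Borcs6, Tmem107, Snord118, Vamp2, Per1, Hes7, Aloxe3. Ctc1 encodes a subunit of the telomere complex CST, Borcs6 a subunit of the lysosome-positioning complex BORC, and Snord118 the U8 small nucleolar RNA. Between Ctc1 and Aloxe3 the table lists 18 tRNA genes. Of these, 7 stand between Ctc1 and Aurkb, 4 between Borcs6 and Tmem107, 3 between Per1 and Hes7 and 4 between Hes7 and Aloxe3, while none stands between Tmem107 and Per1. The deposited tables give mm9 positions without gene names and no mm9 annotation was used here, so no fragment below is assigned to a gene by position.

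StyI cuts at CCAAGG, read on the other strand as CCTTGG, and at the palindromes CCATGG and then CCTAGG, and the stretch between adjacent sites is the unit counted. Of the genes named by the rule, Tmem107, Per1 and Hes7 have a promoter in the RefSeq table, which covers 250 bases before to 50 after each start. The 250 bases before the start are shown here (plus strand, 5′ to 3′, RefSeq GRCm38.p6), for Tmem107 because 2 StyI sites in it enclose a whole fragment, for Per1 and Hes7 as the clock genes of the interval. Capitals mark the StyI sites in Tmem107, the E-box CACGTG and the CCAAT boxes (on either strand) in Per1, and the SP1 box GGGCGG in Hes7.
Tmem107 promoter: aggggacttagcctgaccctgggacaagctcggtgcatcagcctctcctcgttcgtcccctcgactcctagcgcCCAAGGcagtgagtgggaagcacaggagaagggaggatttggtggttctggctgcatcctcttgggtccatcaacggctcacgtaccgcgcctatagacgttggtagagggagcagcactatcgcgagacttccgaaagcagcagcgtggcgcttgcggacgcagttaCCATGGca
Per1 promoter: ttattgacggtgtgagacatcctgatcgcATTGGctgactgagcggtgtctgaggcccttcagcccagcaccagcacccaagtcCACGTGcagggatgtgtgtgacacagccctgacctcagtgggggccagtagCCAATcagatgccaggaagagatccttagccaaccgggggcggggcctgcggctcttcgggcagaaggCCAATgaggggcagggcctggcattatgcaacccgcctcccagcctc
Hes7 promoter: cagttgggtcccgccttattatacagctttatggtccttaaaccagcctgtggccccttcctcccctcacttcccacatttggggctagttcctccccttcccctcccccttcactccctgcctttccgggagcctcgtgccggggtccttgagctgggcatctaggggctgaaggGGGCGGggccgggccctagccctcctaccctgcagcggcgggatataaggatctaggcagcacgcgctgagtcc
Over both strands of the whole 300 bases, the Tmem107 promoter held 2 StyI sites and the Per1 and Hes7 promoters none. A StyI site was present in 34.5% of all 32851 promoters of this length. The first Per1 promoter held 1 E-box, the element bound by clock activators, which 7.15% of all promoters hold, and 3 CCAAT boxes, of which 37.4% of promoters hold at least 1. The Hes7 promoter held 1 SP1 box (35.7% of all promoters) and 1 N-box CACNAG, an element bound by Hes repressors (42.5%). The Tmem107 promoter and both Per1 promoters also held 1 SP1 box each, and the first Per1 promoter 1 N-box. The second Per1 promoter, not shown, held no E-box and 1 CCAAT box. The cell-cycle element TTTGAA (CHR) was absent from these promoters and present in 17.9% of all. These matches describe letters and say nothing about binding in these cells.

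Summed over the 227 fragments, the interval was several times more abundant in the HRS fraction than in the Loop fraction or in input, and the Loop sum overlapped that of input. HRS replicates 1, 2 and 3 held 391, 391 and 674 CPM. The Loop replicates held 99.8, 99.0 and 132 CPM, and inputs 1, 2 and 3 held 132, 128 and 115 CPM. Every HRS library lay above every Loop and input library, HRS replicate 3 stood apart above the other HRS libraries, and the Loop and input libraries overlapped. The HRS mean was 485 ± 163 CPM, the Loop mean 110.4 ± 19.0 and the input mean 125 ± 9.11 (± SD over 3 libraries). The HRS mean was therefore 4.40-fold the Loop mean and 3.88-fold the input mean, and without HRS replicate 3 these ratios were 3.54 and 3.13. Without the fragments up to 200 bp, HRS was 6.66-fold Loop and 4.03-fold input, and every Loop library (48.4 to 61.1 CPM) lay below every input library (81.9 to 95.6 CPM). With 3 libraries against 3, an exact two-sided permutation test cannot go below 0.1, and none was run on these sums.

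Over the 200 kb flanks, HRS was above Loop before the interval and level with Loop after it. The last 10 kb before the interval held 25.4 CPM in HRS, beside 18.9 in the first 10 kb inside. The last 10 kb inside held 17.7 CPM, beside 10.5 in the first 10 kb after the interval. In the 200 kb after the interval (302 fragments), HRS held 180.1 ± 36.2 CPM, Loop 181 ± 20.5 and input 158 ± 7.01, so that HRS over Loop was 0.997. In the 200 kb before it (248 fragments), HRS held 202 ± 46.6 CPM, Loop 121 ± 8.03 and input 123 ± 7.46, an HRS over Loop ratio of 1.68. Set against the mean of its own flanks per unit length, the interval stood at 3.02, 2.82 and 3.53 in the HRS replicates, at 0.889, 0.855 and 0.990 in the Loop replicates and at 1.12, 1.15 and 1.07 in the inputs. Against this mean of both flanks, input was thus slightly above, Loop slightly under and HRS at about 3 times the level, as the profile of counts by distance shows. The flanks differed from each other. Per 10 kb, Loop held 6.90 CPM in the interval, 6.04 before it and 9.03 after it, and input 7.81, 6.17 and 7.89.

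**Figure D1:**
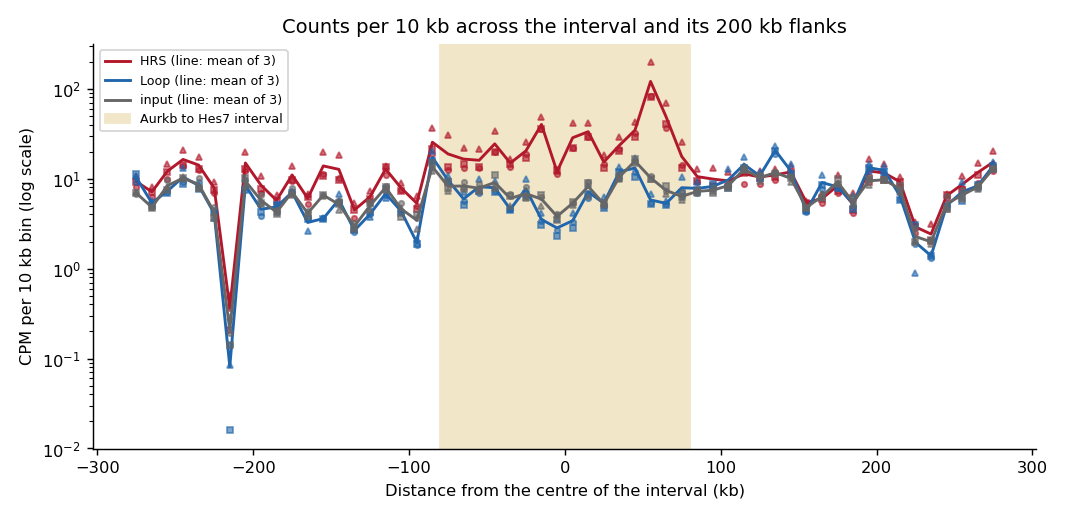
Counts per 10 kb bin (CPM, log axis) against distance from the centre of the interval (kb), with a point for each library and lines for the mean of 3 libraries of HRS, Loop and input. HRS lies above Loop and input throughout the shaded interval, with its peak of 121 CPM in the bin centred 55 kb after the centre, and the lines come together after the interval.

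All 16 bins of 10 kb in the interval had every HRS library above every Loop library and above every input library. The share of all bins over the genome with such a separation was not counted, so nothing is read from it here or in the flanks. Among all 10 kb bins tested over the genome, edgeR (adjusted p of 0.05) called 17.8% higher in HRS than in Loop and 15.2% higher in HRS than in input, and it called all 16 bins higher in both comparisons. The ratio of mean CPM in HRS over Loop ran from 1.96 to 20.8 with a median of 2.97, and HRS over input from 1.99 to 11.8. Both maxima belong to chr11:68920001-68930000, whose fitted ratios fell without HRS replicate 3 from 20.9-fold to 13.4-fold over Loop and from 13.2-fold to 8.66-fold over input. In the 20 bins before the interval the HRS over Loop ratio ran from 0.900 to 4.47 (median 1.73), with every HRS library above every Loop library in 17. In the 20 bins after it the ratio ran from 0.534 to 1.74 (median 1.06), with such a separation in 6.

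The enrichment was uneven along the interval, with 1 bin far above the rest. The 3 bins with the largest HRS over Loop ratio are given here, and chr11:68870001-68880000 followed at 8.36-fold. The bin chr11:68920001-68930000 held 83.5, 81.8 and 196 CPM in the HRS replicates, 5.42, 5.24 and 6.74 in the Loop replicates and 10.8, 9.90 and 9.94 in the inputs. The bin chr11:68850001-68860000 held 35.4, 36.1 and 48.7 CPM in HRS, 3.36, 3.04 and 4.17 in Loop and 6.27, 6.61 and 4.93 in input. The bin chr11:68930001-68940000 held 36.4, 40.3 and 69.0 CPM in HRS, 5.25, 5.07 and 5.64 in Loop and 7.27, 8.22 and 6.74 in input. In these 3 bins every Loop library also lay below every input library.

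The 3 bins with the smallest fitted HRS over Loop ratio lay at the start and in the later part of the interval. In chr11:68900001-68910000 HRS held 21.3, 20.4 and 28.9 CPM, Loop 10.2, 11.98 and 13.7 and input 11.2, 10.3 and 9.93. In chr11:68810001-68820000 the HRS values were 13.3, 13.7 and 21.2 CPM, the Loop values 6.98, 7.37 and 10.0 and the input values 8.70, 7.28 and 7.57. In chr11:68790001-68800000, the first bin, HRS held 12.5, 13.5 and 30.5 CPM, Loop 9.16, 9.14 and 10.6 and input 9.63, 7.86 and 7.24. Loop and input overlapped in each of these bins. The fitted log2 ratios of HRS over Loop were 0.96, 0.96 and 0.97 in the order given. Without HRS replicate 3 the ratio of the first bin was 0.34 (SE 0.13).

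A few single fragments carried much of the HRS signal. The 5 fragments highest in HRS held 20.7%, 21.8% and 33.2% of the interval's counts in HRS replicates 1, 2 and 3. They held 1.24%, 1.38% and 1.06% in the Loop replicates and 3.08%, 3.43% and 2.68% in the inputs. They were picked by their HRS level, so the gap to the other groups is a description of that choice. Of these 5, 3 adjoin each other at chr11:68923585-68924770, 134 to 135 kb into the interval.

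The highest of all was the 217 bp fragment chr11:68924190-68924407. It held 42.1, 44.3 and 123 CPM in the HRS replicates, against 0.557, 0.524 and 0.715 in the Loop replicates and 1.75, 1.96 and 1.14 in the inputs. By itself it made up 10.8%, 11.3% and 18.3% of the interval's HRS counts. HRS replicate 3 was nearly 3 times the other HRS libraries here, and no library of another group came near any HRS library. Its fitted log2 ratio was 6.67 (SE 0.36) for HRS over Loop, 5.56 (SE 0.46) for HRS over input and -1.04 (SE 0.31) for Loop over input. Without HRS replicate 3 the first of these was 5.88 and the second 4.82. It was also among the 3 fragments highest in input, and leaving it out lowered the HRS over Loop ratio of the interval from 4.40 to 3.78.

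Its neighbours on either side were high as well. The 605 bp fragment chr11:68923585-68924190 held 7.04, 8.10 and 17.3 CPM in HRS, 0.159, 0.254 and 0.170 in Loop and 0.643, 0.601 and 0.489 in input. The 363 bp fragment chr11:68924407-68924770 held 11.04, 8.90 and 27.6 CPM in HRS, 0.302, 0.302 and 0.323 in Loop and 0.740, 0.566 and 0.580 in input. The log2 ratio of HRS over input was 4.34 (SE 0.36) for the first and 4.77 (SE 0.40) for the second, and without HRS replicate 3 it was 3.79 and 4.06. In all 3 fragments of this stretch HRS replicate 3 was more than 2 times the mean of the other HRS libraries.

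The remaining fragments of highest HRS level lay in other stretches. The 865 bp fragment chr11:68938173-68939038 held 11.7, 16.3 and 38.7 CPM in HRS, 0.0954, 0.143 and 0.0341 in Loop and 0.643, 1.03 and 0.688 in input. Loop lay below input in every pairing of libraries there, with a log2 ratio of Loop over input of -2.68 (SE 0.43) beside 4.95 (SE 0.42) for HRS over input, the latter being 4.24 without HRS replicate 3. The 171 bp fragment chr11:68850377-68850548 held 8.99, 7.59 and 17.2 CPM in HRS, 0.127, 0.143 and 0.153 in Loop and 0.306, 0.230 and 0.181 in input. Its log2 ratio of HRS over input, 5.65 (SE 0.39), was the highest of any tested member, but within 1 SE of the 217 bp fragment's 5.56 (SE 0.46). It rests on 42 input counts and was 5.175 without HRS replicate 3.

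**Figure D2:**
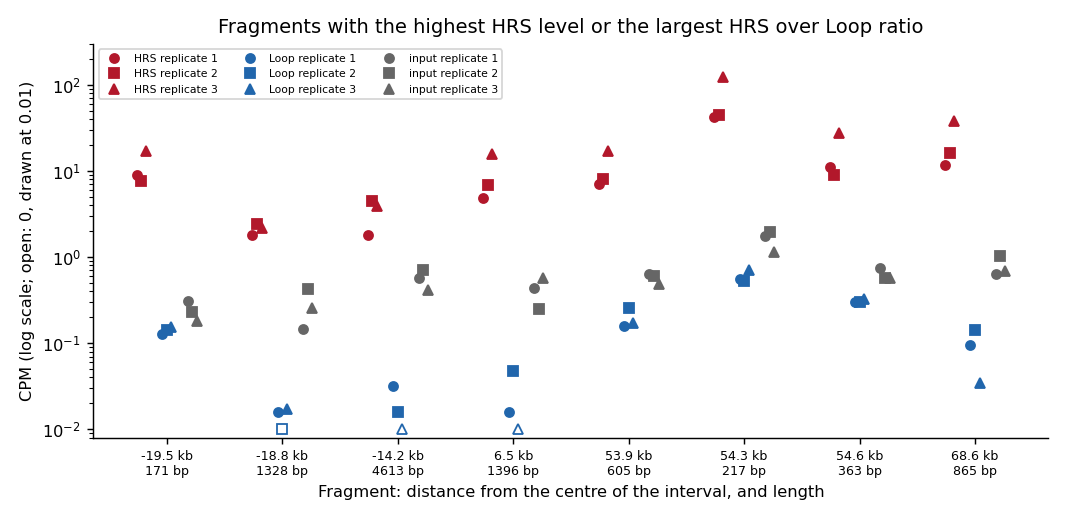
CPM (log axis) in each of the 9 libraries for the 8 fragments that were highest in HRS or had the largest fitted HRS over Loop ratio, ordered by distance from the centre of the interval, with fragment length beneath. Open symbols are libraries at 0, and in every fragment all HRS points lie above all input points and all Loop points lie under all HRS points.

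The 5 fragments with the largest fitted HRS over Loop ratio included the 865 bp and 217 bp fragments already described, with 17 and 110 Loop counts in all. The other 3 were longer and nearly absent from the Loop fraction. The 1396 bp fragment chr11:68875851-68877247 had 253, 357 and 616 HRS counts, 1, 3 and 0 Loop counts and 27, 14 and 32 input counts. The 4613 bp fragment chr11:68853513-68858126, the longest of the interval, had 93, 236 and 154 HRS counts, 2, 1 and 0 Loop counts and 36, 40 and 23 input counts. The 1328 bp fragment chr11:68850548-68851876 had 92, 129 and 86 HRS counts, 1, 0 and 1 Loop counts and 9, 24 and 14 input counts. With Loop totals of 4, 3 and 2 the size of their HRS over Loop ratio rests on very few tags. Against input, where the counts are larger, the log2 ratios of HRS were 4.56 (SE 0.41), 2.69 (SE 0.32) and 3.08 (SE 0.33), the first being 3.88 without HRS replicate 3.

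Fragments with a fitted HRS over Loop ratio above 8-fold numbered 20, and they fell in 6 stretches when members up to 5 kb apart were joined. Both limits were chosen after the values were seen. With the length correction 15 of the 20 stayed above 8-fold, in 5 of the stretches, and without HRS replicate 3 it was 17. The ratio of 8 of the 20 rests on under 10 Loop counts. The stretches were chr11:68849772-68858751 with 6 such fragments, chr11:68865880-68868684 with 2 (0 with the length correction), and chr11:68874677-68878358, chr11:68886340-68890895, chr11:68923585-68924770 and chr11:68931321-68939038 with 3 each. The shortest, at 1.19 kb, was the stretch of the highest fragment, and the longest ran over 8.98 kb. The first of these fragments has its midpoint 60.1 kb after the start of the interval, and none lies before it, although HRS was above input in every bin there. That empty part depends on the limit. By the ratio of mean CPM, chr11:68827539-68829765 and chr11:68841103-68843862, which lie before it, stood at 8.21-fold and 8.01-fold, on 26 and 16 Loop counts.

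Counted over single fragments, the direction was nearly uniform. Of the 227 members, 6 were never counted in any library and 208 passed the low-count filter of the fit of HRS against Loop. Of these 208, edgeR called 165 higher in HRS and 0 lower, beside 8.02% and 14.8% of all fragments tested over the genome, and 43 were not called. At an unadjusted p of 0.05 the same test gave 180 higher and 0 lower. Shares over all fragments or bins were not counted at an unadjusted p, here or below. Because the interval was chosen with this contrast in view, nothing is read from these counts. The same fit with each replicate number as a block called 171 higher and 0 lower, beside 8.51% and 15.55% of all fragments. The median fitted log2 ratio of the tested members was 1.62, from -0.68 up to 8.39 at a fragment with 4 Loop counts, beside 0.04 for all fragments tested. Of the 205 members with at least 100 counts over the 9 libraries, a limit set after the values were seen, 176 had every HRS library above every Loop library and 0 had every HRS library below, where 21.5% and 16% of such fragments over the genome did. That limit can be reached through HRS counts alone. Counts and medians at this limit, here and below, therefore describe only the members that passed it.

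Against input, with the same HRS libraries and values that were also in view when the interval was chosen, edgeR called 165 of 208 tested members higher in HRS and 0 lower, and at an unadjusted p of 0.05 it gave 194 and 0. Over the genome 4.57% of tested fragments were called higher and 1.74% lower. The tested members had a median log2 ratio of 1.51, from -0.29 to 5.65, beside -0.02 for all fragments. In 178 of the 205 members with at least 100 counts every HRS library lay above every input library (11.7% of such fragments over the genome), and in 0 every HRS library lay below. Without input replicate 3 the fit called 108 (1.18% of all fragments), and without HRS replicate 3 it called 157 (4.53%). A member can pass the count filter through its HRS counts alone, so these counts describe the tested members and not the 19 that were left out.

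Loop against input gave a mixed picture. Of 193 tested members, edgeR called 27 higher in Loop and 25 lower, beside 18.7% and 4.24% of all fragments tested, and 141 were not called. The median log2 ratio was -0.28, beside -0.12 for all fragments tested. Of the 205 members with at least 100 counts, 18 had every Loop library above every input library and 91 had every Loop library below, where 17.1% and 32.9% of such fragments over the genome did. In 10 kb bins 3 were called higher and 5 lower, beside 21.5% and 18% of all bins. With a correction for fragment length, edgeR called 0 members higher and 7 lower (4 and 26 at an unadjusted p of 0.05), beside 0.621% and 0.120% of all fragments. It called 0 bins higher and 2 lower (0 and 4 unadjusted), beside 0.270% and 0.0782% of all bins. Scaled by library totals the split over single fragments was 16 higher and 64 lower, beside 14.1% and 19.5% of all fragments, whose median was -0.50. Scaled by the totals of chromosome 11 it was 14 and 68, beside 12.5% and 22.1%. HRS and Loop are each compared with the same inputs here, and the values stand side by side without a test between them.

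**Figure D3:**
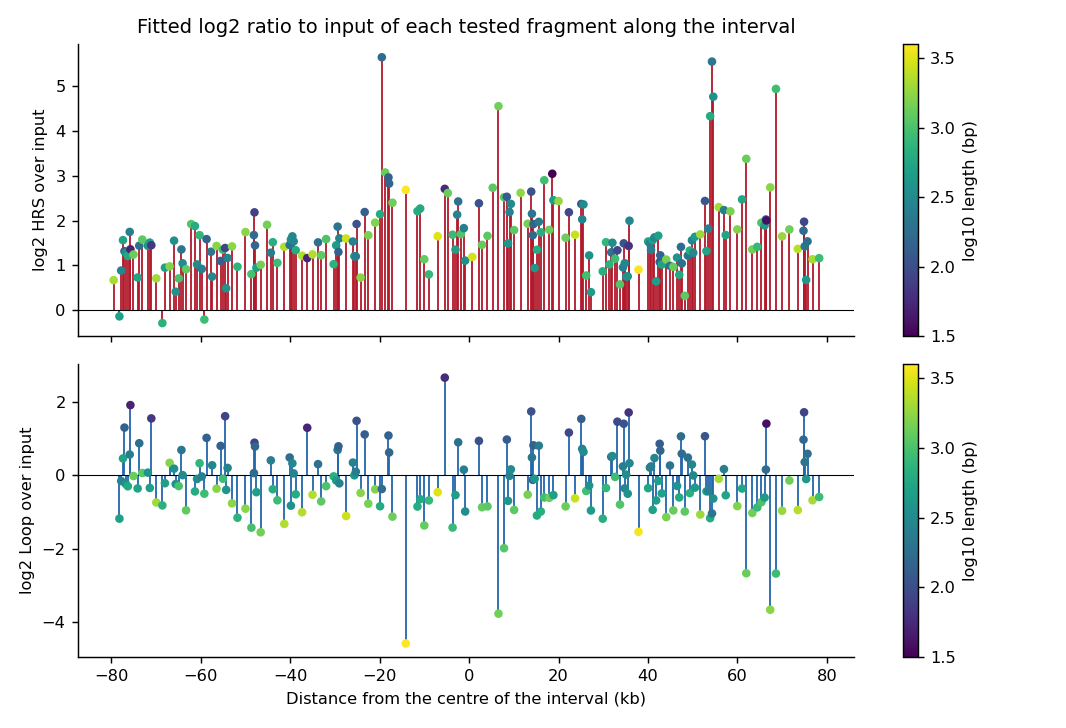
Fitted log2 ratio of HRS over input (upper) and Loop over input (lower) for each tested fragment, at its distance from the centre of the interval (kb), coloured by the log10 of its length in bp. Nearly every HRS ratio is above 0, with the tallest at the fragments named in the text, and the positive Loop ratios belong mostly to short fragments.

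The Loop values varied with fragment length, while the HRS values over input were nearly level. With lengths divided at 200, 500 and 1000 bp, limits set after the values were seen, the median log2 ratio of HRS over input in members was 1.52 for the 46 shortest with at least 100 counts. It was 1.33 for the 66 above 200 and up to 500 bp, 1.23 for the 38 above 500 and up to 1000 bp and 1.52 for the 55 above 1000 bp. Over the genome the same classes gave 0.06, -0.12, -0.22 and -0.14. For Loop over input the members' medians were 0.57, -0.39, -0.89 and -1.16, and those of all fragments 0.92, -0.33, -0.83 and -0.91. The HRS over Loop medians in members were 1.01, 1.59, 2.11 and 2.63, beside -0.84, 0.19, 0.58 and 0.74 for all fragments. In each class the members' HRS medians lay above those of all fragments, and the slope of Loop with length was present in both. Up to 200 bp long fragments made up 46.8% to 55.6% of all counts in the Loop libraries, 28.9% to 32.0% in HRS and 25.6% to 27.0% in input.

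**Figure D4:**
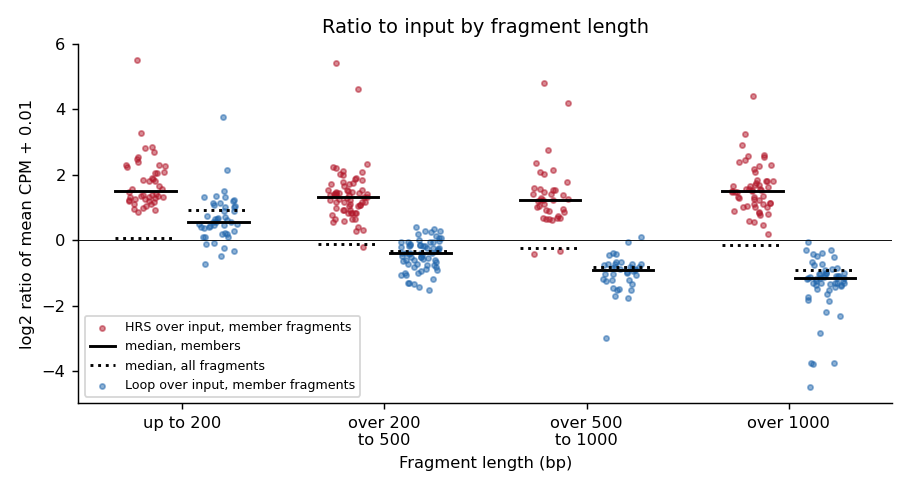
Log2 ratio of mean CPM + 0.01 to input for member fragments with at least 100 counts, by length class (bp), with HRS over input in red and Loop over input in blue. Solid lines are medians of members and dotted lines medians of all fragments, and the HRS medians of members stay between 1.23 and 1.52 while the Loop medians run from 0.57 to -1.16.

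The 5 members with the smallest fitted HRS over Loop ratio were all under 100 bp long. The 53 bp fragment chr11:68833754-68833807 held 0.854, 1.18 and 0.871 CPM in HRS, 0.684, 1.06 and 0.868 in Loop and 0.499, 0.389 and 0.507 in input. The 85 bp fragment chr11:68815377-68815462 held 1.86, 2.33 and 3.07 CPM in HRS, 1.99, 2.42 and 2.55 in Loop and 1.05, 0.831 and 1.10 in input. In both, HRS and Loop overlapped and both lay above input in every library. The fragments chr11:68905641-68905706 (65 bp), chr11:68794208-68794258 (50 bp) and chr11:68903075-68903106 (31 bp) completed the group, with log2 ratios of HRS over Loop of -0.21 (SE 0.41), -0.48 (SE 0.34) and -0.68 (SE 0.53). With the length correction the ratios of all 5 were positive, from 0.95 to 1.43, and with library totals those of the first and second fragments were 0.16 and 0.06.

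The 3 fragments highest in input were the 217 bp fragment that led in HRS and the following. The 172 bp fragment chr11:68821771-68821943 was the highest, with 1.67, 2.26 and 1.41 CPM in input, 3.14, 3.43 and 9.19 in HRS and 1.22, 1.18 and 1.84 in Loop. The 295 bp fragment chr11:68904647-68904942 held 1.66, 1.502 and 1.34 CPM in input, 2.33, 2.63 and 3.69 in HRS and 0.652, 0.906 and 1.11 in Loop. The 172 bp and 295 bp fragments had every HRS library above every input library, at log2 ratios of 1.68 (SE 0.34) and 1.05 (SE 0.27), and the first lost part of its ratio without HRS replicate 3 (0.97).

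The StyI fragment in the Tmem107 promoter shown above is 168 bp from cut to cut. A single member has this length, chr11:68884137-68884305, and the match rests on length alone, which 0.0957% of all fragments share. That fragment held 1.63, 1.54 and 2.07 CPM in HRS, 0.382, 0.191 and 0.664 in Loop and 0.772, 0.707 and 0.272 in input. HRS lay above both other groups in every library, at a log2 ratio over input of 1.67 (SE 0.31), while Loop and input overlapped. It was looked for after the data had been seen, and its level in HRS was far under that of the leading fragments.

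HRS replicate 3 differed from the other HRS libraries in more than this interval. Its CPM over the mean of replicates 1 and 2 was 1.72 for the interval, 1.46 and 1.39 for the flanks before and after it and 1.26 for the whole of chromosome 11. Among the 175 members with at least 100 HRS counts this ratio had a median of 1.45, ran from 0.512 to 4.51 and exceeded 2 in 27, while the median of all fragments with at least 100 counts over the genome was 0.931. In Loop replicate 3 the same ratio was 1.33 for the interval and 1.19 for chromosome 11. Chromosome 11 took 1.03, 1.06 and 1.32 times its mean input share in the HRS replicates and 1.00, 1.04 and 1.21 times in the Loop replicates. Scaled to chromosome 11, HRS over Loop was 4.13 and HRS over input 3.35, and without HRS replicate 3 the ratios were those given above, 3.54 and 3.13.

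The fragments at the borders held at most 1.89 CPM in any HRS or Loop library. The first member, chr11:68789443-68791530, held 0.272, 0.324 and 0.410 CPM in HRS and 0.0636, 0.127 and 0.119 in Loop, and the 74 bp fragment just outside it 0.796, 1.32 and 1.89 in HRS and 1.35, 1.38 and 1.40 in Loop. The last member, chr11:68947825-68948709, held 0.660, 0.477 and 1.02 CPM in HRS and 0.207, 0.143 and 0.170 in Loop. The 5230 bp fragment after it held 0.272, 0.381 and 0.102 in HRS and 0.0954, 0.0477 and 0 in Loop. In CPM, HRS and Loop did not overlap in the members at both edges or in the outside neighbour after the interval, and they overlapped in the one before it. For the neighbour after the interval this rests on 14, 20 and 4 HRS counts and 6, 3 and 0 Loop counts, which overlap before scaling.

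By likeness of pattern, defined as the root mean square difference of centred log2 CPM over the 9 libraries, the 10 kb bins nearest to the interval's sum lay mostly on its own chromosome. They were chr11:101500001-101510000 at 0.0901, chr11:58110001-58120000 at 0.105, chr11:97850001-97860000 at 0.116, chr6:108130001-108140000 at 0.124 and chr11:100180001-100190000 at 0.126, where the median of all bins compared was 1.06. The nearest held 12.2, 10.4 and 17.7 CPM in HRS, 2.66, 3.04 and 3.81 in Loop and 4.02, 3.71 and 3.42 in input, a ratio of HRS over Loop of 4.24. All of these bins share the raised level of HRS replicate 3, which chromosome 11 has as a whole.

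The libraries held 51.5, 52.5 and 39.1 M counts in HRS, 62.9, 62.9 and 58.7 M in Loop and 62.2, 56.6 and 55.2 M in input. At these depths the 227 members together had 20171 to 26308 counts in an HRS library, 6232 to 7767 in a Loop library and 6341 to 8236 in an input library. Fragments with few tags are therefore compared with less precision, and 22 members had under 100 counts over all libraries.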

How the data were processed

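The deposited fragment tables hold whole-number counts of tags per StyI fragment for 3 HRS, 3 Loop and 3 input libraries. Per the submitters' processing notes, CASAVA 1.8.2 and build mm9 were used. For the aligner, multiple matches and the coordinates' counting base: not given in the sources used here. On each of the 21 chromosomes the final stretch, after its last StyI site, was left out. The deposited repeat counts name 312 repeats, 0 of them of the tRNA class, and were not used for the members.

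Counts of all 3053721 fragments, and of 10 kb bins summed by midpoint, were compared between pairs of groups with edgeR 4.0.16 in R 4.3.3 (quasi-likelihood test, TMM, filterByExpr with a minimum count of 10, Benjamini-Hochberg adjusted p of 0.05 over all features tested). A standard error is the log2 ratio's size over the root of its F statistic. Alternatives were median-of-ratios factors, library totals, chromosome 11 totals, no filter, an offset for 20 length classes, DESeq2 1.42.0 for bins, each library left out, and the replicate number as a block. Only the main fit of HRS against Loop was run on simulated counts, for 10 kb bins and for the fragments of chromosome 11. The other comparisons and the alternatives were not simulated. Counting intervals are not given, since tags carry no molecular identifiers.

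Named items are the 3 highest and 3 lowest bins, the 5 fragments highest in HRS, the 5 largest and 5 smallest fitted HRS over Loop ratios, the border fragments, the 3 highest in input and the 5 bins most alike. Members, lists and tests were chosen with earlier results of these data known. The main fits used no pairing. Only in the replicate block and the mean over pairs were equal replicate numbers treated as pairs of HRS and Loop libraries. In 10 kb bins the departures of such libraries from their group's mean had correlations of 0.168, 0.106 and 0.233. HRS replicate 2 correlated more with Loop replicate 1 (0.127) than with Loop replicate 2, and HRS replicate 1 with Loop replicate 2 stood at 0.0578. These values therefore do not settle whether equal numbers are pairs.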

Additional observations from a re-analysis of the deposited data

How the results depend on the processing

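All 16 bins stayed higher in HRS than in Loop and than in input under every alternative run with edgeR. The shares of all bins called higher ran from 10.4% to 20.4% against Loop and from 5.68% to 16.9% against input. The DESeq2 test called 15 of the 16 bins against Loop (17.4% of all bins) and 16 against input (14.2%). Over single fragments, leaving out a library gave 125 (without HRS replicate 3, 4.88% of all fragments) to 171 (without Loop replicate 3, 5.54%) members higher in HRS than in Loop. It gave 0 to 1 lower (the 1 without HRS replicate 3, 12.6%). Against input it gave 108 (without input replicate 3, 1.18%) to 166 (without HRS replicate 2, 4.48%) higher in HRS. The replicate block gave 171 fragments (8.51% of all) and 16 bins (20.4%), with the length offset 176 fragments (4.72%), and moved no count of calls by over 1.5 times. As a mean over the pairs the log2 ratio of the sum was 2.10, beside 2.14. Without fragments up to 200 bp that ratio was 2.74, and for Loop over input -0.73 beside -0.18, and the cause was not tested. Library totals and chromosome 11 totals moved the median of all fragments from 0.04 to 0.24 and 0.18 for HRS over Loop, and from -0.02 to -0.12 and -0.28 for HRS over input. Loop against input moved most. Members called higher were 16 with library totals, 0 with the length offset and 14 with chromosome 11 totals, and those called lower 64, 7 and 68. The shares of all fragments for these are given above and moved with the scaling. Leaving out a library gave 19 (15.1% of all fragments) to 36 (19.8%) higher and 8 (1.46%) to 25 (2.69%) lower. Those lower were 15 without Loop replicate 1 (2.89%), 9 without input replicate 1 (1.61%) and 8 without input replicate 2 (1.46%). Bins called higher were 0 with library totals, the length offset and chromosome 11 totals (13.7%, 0.270% and 5.94% of all bins). With a library left out they were 0 to 4 (1 without Loop replicate 3, 0 without input replicate 2 or 3), beside 15.9% to 21.6% of all bins. Bins called lower were 2 with the length offset (0.0782%), 10 with chromosome 11 totals (27.6%), 3 without Loop replicate 1 (17.2%) and 8 without Loop replicate 3 (18.0%). Signs turned in 32 of the values of named items under an alternative, 3 of them where the ratio was called in the main fit. For HRS over Loop the length offset, alone or with the replicate block, turned chr11:68833754-68833807 to 1.43 and 1.43, chr11:68815377-68815462 to 0.95 and 0.94, chr11:68905641-68905706 to 1.21 and 1.18, chr11:68794208-68794258 to 0.95 and 0.85, and chr11:68903075-68903106 to 1.09 and 1.12. Library totals turned the first of these to 0.16 and the second to 0.0566, and chromosome 11 totals the first to 0.10. With a library left out, the first ranged from -0.31 to 0.0801, the third from -0.65 to 0.12 and the fifth from -1.09 to 0.50. For Loop over input the length offset turned chr11:68833754-68833807 to -0.50, chr11:68905641-68905706 to -0.025, chr11:68821771-68821943 to -0.52, and the bins chr11:68810001-68820000 and chr11:68900001-68910000 to -0.018 and -0.0089. Library totals and chromosome 11 totals turned chr11:68821771-68821943 to -0.34 and -0.47, and chromosome 11 totals the bin chr11:68810001-68820000 to -0.0737. With a library left out, that fragment ranged from -0.23 to 0.31, chr11:68884137-68884305 from -0.69 to 0.30 and that bin from -0.019 to 0.30. Of the other values of named items, 731 kept direction and side of the threshold, 40 lost and 11 gained a call. Members near 0 in Loop are limited by depth.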
